A study of Mus musculus and Mus musculus x Mus spretus with 14 samples.

Results

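The miR-200 family was followed across 13 mouse skin cell lines that span the stages of skin carcinogenesis, on 14 miRNA arrays. The family has 5 members, mmu-miR-200a, mmu-miR-200b, mmu-miR-429, mmu-miR-200c and mmu-miR-141, written here without the mouse prefix. Its probes were taken by name, as the 5 of 1271 array probes whose identifier holds the mouse miRNA itself and not its star form. They are read here within the 576 probes that name a mouse miRNA.

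The non-malignant squamous group (n = 5) held 3 keratinocyte lines immortalized in culture (C5N, C50, NK) and 2 lines from papillomas (MSCP1, P6). C5N is a single-cell clone of MCA3D cells from a BALB/c mouse, NK comes from a p53 null mouse, and MSCP1 and P6 arose in Mus spretus X CBA mice treated with the carcinogen DMBA and the tumour promoter TPA. The malignant squamous group (n = 3) held B9, E4 and PDVC57, and the malignant spindle group (n = 5) held A5, D3, CARB, CARC and H11. Spindle cells are carcinoma cells of elongated shape that have lost epithelial morphology. B9, A5 and D3 came from 1 tumour of a DMBA-treated Mus spretus X CBA hybrid, and E4 and H11 are single-cell clones from SN161, which grew from the lymph node metastasis in an F1 129/NIH mouse. PDVC57 grew from PDV cells, keratinocytes transformed by DMBA in culture, after injection into C57BI mice, and CARB and CARC arose in NIH/Swiss mice treated with DMBA and TPA. The organism label calls NK and not P6 a spretus hybrid, against the descriptions. All lines were grown in the same serum-containing medium, each is 1 line on 1 array, and the 2 arrays of A5 were averaged.

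Values are the deposited log2 signals. The 8 negative control probes had medians of 6.50 to 6.67 over the lines, and a probe is called above background where it exceeds that median by over 1 log2 unit. Arrays of 3 lines stood apart. The C5N array had a median correlation of 0.332 with the other arrays over the mouse probes, and the A5 arrays had 0.735 and 0.747, against 0.813 to 0.901 for the arrays of the other 11 lines. On the MSCP1 array 37 mouse probes were above background, against 119 to 185 in the other lines. For comparisons between the phenotype groups, counts of members called or without overlap are also given without these 3 lines where they change.

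miRNAs of the miR-200 family are abundant in epithelial cells. They repress Zeb1 and Zeb2, transcription factors that shut off E-cadherin and other epithelial genes, and the Zeb factors in turn repress transcription of both miR-200 gene clusters. The family is therefore widely used as a marker of the epithelial state, and its loss is a known feature of epithelial-mesenchymal transition.

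The members come from 2 gene clusters and carry 2 seeds, and these groupings cross. All 5 members matched RefSeq, which is the source of the sequences and positions (build GRCm38.p6, minus strand for all). Mir200b, Mir200a and Mir429 lie at chr4:156053905-156055750, a stretch of 1846 bases that overlaps the annotated gene Gm13648. Mir200c and Mir141 lie at chr6:124717914-124718390, a stretch of 477 bases between the genes Phb2 and Ptpn6. The array names correspond to the strand from the 3′ side of each hairpin, and these mature sequences are shown because the family members differ in so few bases, with the seed (bases 2 to 8, which pair with targets) in capitals.
miR-200b-3p: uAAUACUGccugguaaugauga
miR-429-3p: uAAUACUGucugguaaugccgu
miR-200c-3p: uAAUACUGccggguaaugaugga
miR-200a-3p: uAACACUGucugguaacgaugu
miR-141-3p: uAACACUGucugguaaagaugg
miR-200b, miR-429 and miR-200c share the seed AAUACUG, and miR-200a and miR-141 share AACACUG, so each cluster contributes to both seed groups. The seeds differ at 1 base. Across clusters, miR-200b and miR-200c differ at 2 of 22 positions and miR-200a and miR-141 at 2 of 22, whereas within a cluster miR-200a and miR-200b differ at 4 and miR-200c and miR-141 at 4. How far each probe reads its near-identical relatives was not tested.

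The mean of the 5 members was 6.64 to 6.91 in spindle lines and 7.23 to 10.2 in squamous lines. For miR-200b and miR-429 taken singly the groups overlapped. No member was above background in any of the 5 spindle lines. Among the 8 squamous lines miR-200a and miR-141 were above background in 7 each, miR-200b in 6, miR-200c in 4 and miR-429 in 3. In C50, NK and P6 all 5 members were above background, in PDVC57 4, in B9 and E4 3, and in C5N and MSCP1 1.

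miR-200a, of the chromosome 4 cluster, had levels of 8.05 in C5N, 9.89 in C50, 9.88 in NK, 7.22 in MSCP1 and 9.29 in P6. It had 8.20 in B9, 7.60 in E4 and 8.93 in PDVC57. In the spindle lines it was at 6.53 in A5, 6.94 in D3, 6.55 in CARB, 6.68 in CARC and 6.77 in H11. Every spindle line lay below every squamous line for this miRNA, the nearest being D3 and MSCP1.

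miR-200b, from the same cluster but with the other seed, had the wider range (4.29 against 3.35 over the 13 lines). Its levels were 6.81 in C5N, 10.87 in C50, 10.21 in NK, 7.18 in MSCP1 and 10.19 in P6. The malignant squamous lines had 8.08 in B9, 8.05 in E4 and 9.52 in PDVC57. The spindle lines lay between 6.58 (CARB) and 6.95 (D3), with 6.77 in A5, 6.91 in CARC and 6.92 in H11. C5N was not above background for miR-200b while its miR-200a lay 1.42 above the negative control median, so that the squamous and spindle groups overlapped through this 1 line.

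miR-429, the third member of the chromosome 4 cluster, was the dimmest. It stood at 6.76 in C5N, 8.57 in C50, 8.94 in NK, 6.93 in MSCP1 and 8.01 in P6, and at 7.32 in B9, 6.92 in E4 and 7.51 in PDVC57. Spindle levels were 6.46 in A5, 6.63 in D3, 7.40 in CARB, 6.46 in CARC and 6.68 in H11. CARB thus lay within the malignant squamous range, while for the other 4 members it was the lowest or second lowest line of all.

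miR-200c, of the chromosome 6 cluster, stood at 7.10 in C5N, 10.39 in C50, 9.43 in NK, 7.04 in MSCP1 and 9.88 in P6. It was at 6.83 in B9, 7.21 in E4 and 9.37 in PDVC57. The spindle lines had 6.33 in A5, 6.75 in D3, 6.29 in CARB, 6.64 in CARC and 6.66 in H11. The groups did not overlap, but B9 exceeded D3 by only 0.08, less than the largest difference of 0.28 between the 2 A5 arrays over the 5 members.

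miR-141, the partner of miR-200c, reached the highest level of the family. Its levels were 7.43 in C5N, 11.18 in C50, 9.96 in NK, 7.78 in MSCP1 and 10.74 in P6. They were 7.66 in B9, 8.02 in E4 and 10.49 in PDVC57, and 7.30 in A5, 7.27 in D3, 6.37 in CARB, 6.76 in CARC and 6.91 in H11. Every squamous line lay above every spindle line, by 0.12 between C5N and A5.

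**Figure D1:**
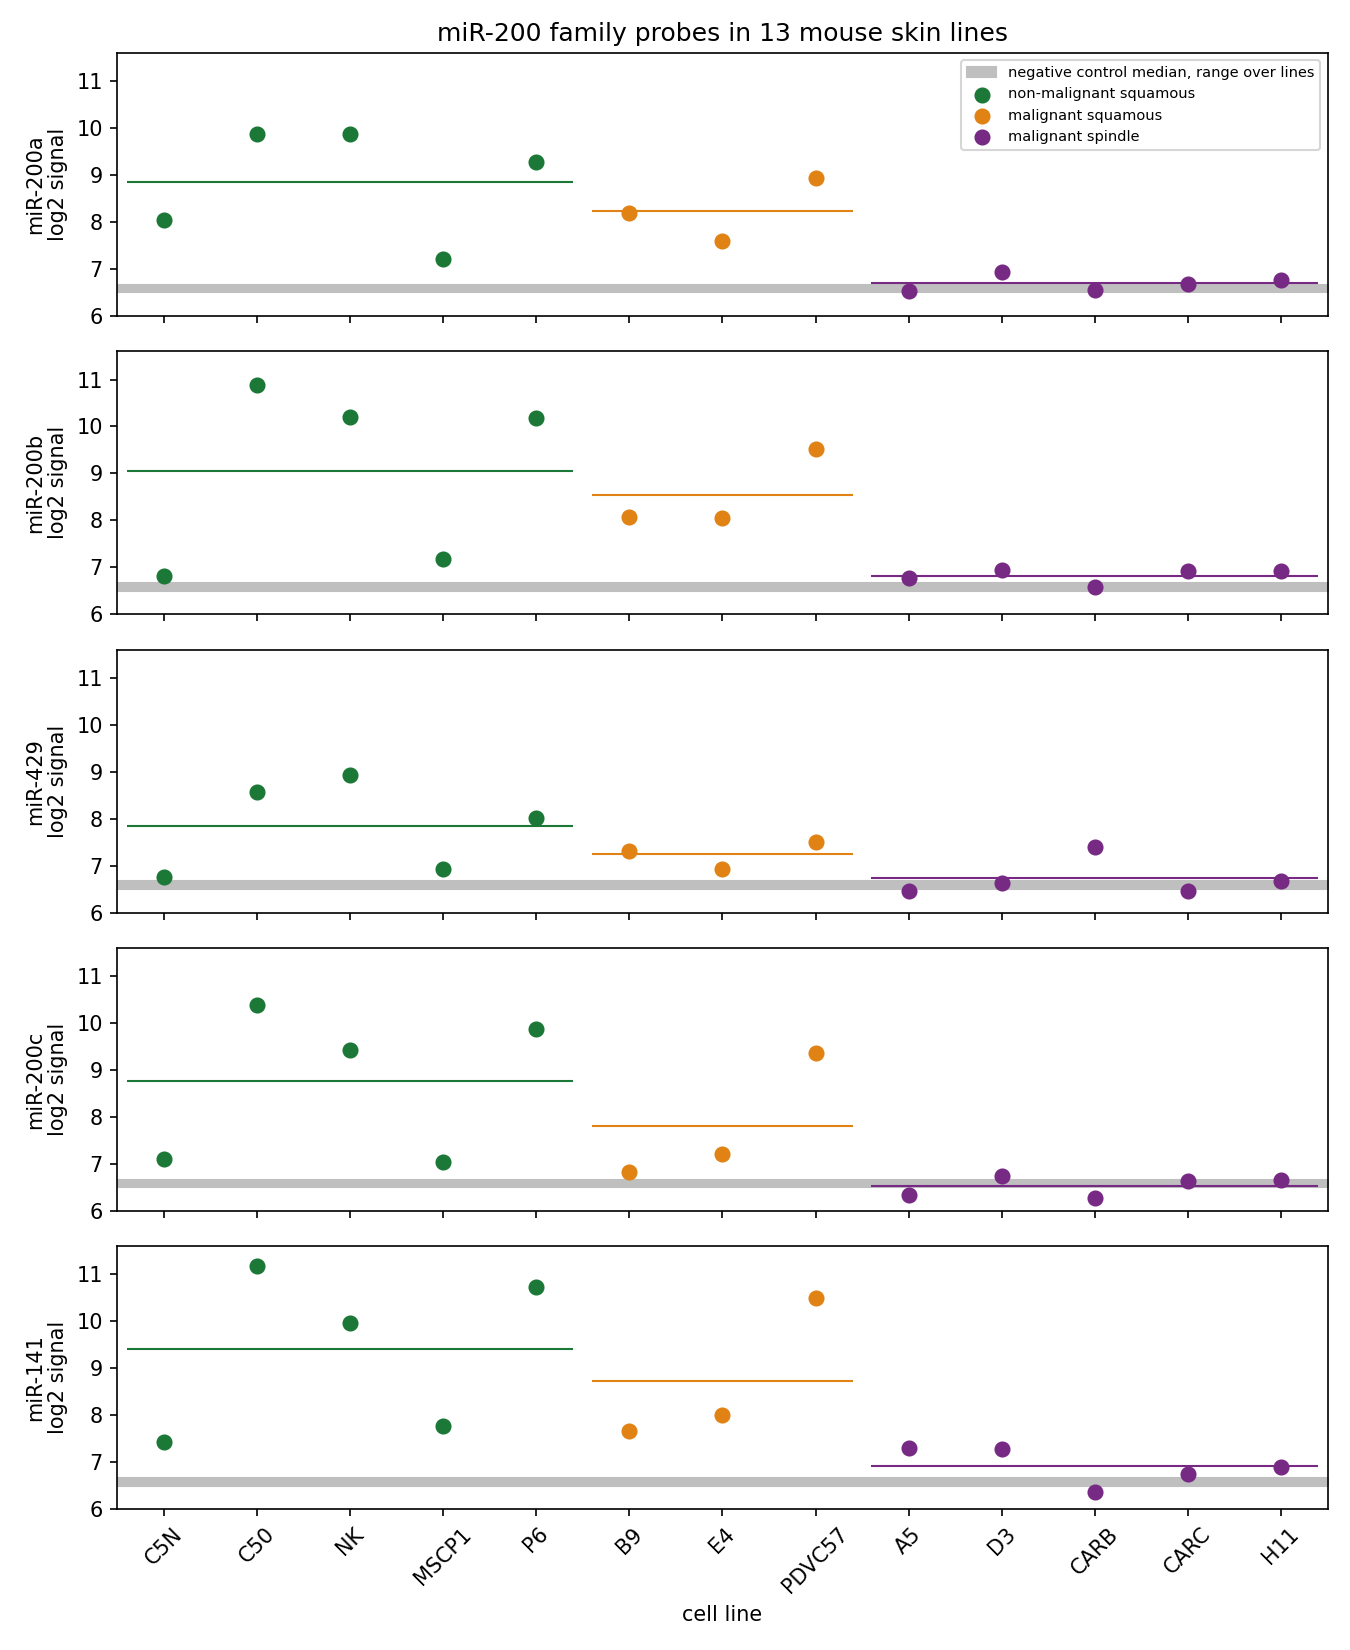
Log2 signal of each family probe (one panel per probe, vertical axis) in each of the 13 lines (horizontal axis), coloured by phenotype. Horizontal lines are group means and the grey band is the range of the negative control medians, 6.50 to 6.67. The spindle lines sit at or near the band for every probe, while C50, NK, P6 and PDVC57 stand well above it.

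Within groups the signals of the squamous lines differed more among themselves than those of the spindle lines did. No member was above background in spindle lines, so the spread there is one of background values and not of miR-200 levels. The mean of the 5 members was 6.74 ± 0.11 (SD, n = 5) in spindle lines, 8.11 ± 0.91 (n = 3) in malignant squamous lines and 8.79 ± 1.44 (n = 5) in the non-malignant ones. The order of the lines by that mean was C50 (10.2), NK (9.68), P6 (9.62), PDVC57 (9.17), B9 (7.62), E4 (7.56), then C5N and MSCP1 (7.23 each), D3 (6.91), H11 (6.79), CARC (6.69), A5 (6.68) and CARB (6.64). The malignant line PDVC57 lay with the 3 brightest non-malignant lines, and a step of 1.55 separated it from B9. Neighbours within the spindle lines, B9 and E4, and NK and P6 differed by less than the 0.28 seen at most between the A5 arrays for a single probe. By this epithelial marker family, 6 of the 8 squamous lines had at least 3 members above background, and C5N and MSCP1 had 1 each.

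C5N and MSCP1 were also the lines with the lowest signal of a probe for U6, a nuclear small RNA, 10.45 and 10.42 for U6-snRNA-2, against 11.85 to 15.06 in the other lines. Their part in the low miR-200 levels was not tested. In cell line RNA of this kind, fewer cells that express a miRNA and less of it per cell cannot be told apart.

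Spindle lines were compared with squamous lines to ask how the family relates to morphology. B9, A5 and D3 share 1 tumour and E4 and H11 another, which the comparisons of phenotype groups do not take into account. With limma over all 576 mouse probes, 0 of 5 members passed an adjusted p of 0.05 against all squamous lines (percent of all probes called, 0%). The exact two-sided permutation test of every probe gave 0 calls as well, but its smallest possible p is 0.000777 here and 0.0179 in comparisons with the 3 malignant squamous lines, so it could call next to nothing after adjustment. At an unadjusted p under 0.05 all 5 members were lower in spindle lines, against 1.56% of all probes lower at that threshold. Of the 5 members 3 lay lower in spindle lines with no overlap between the groups, against 0.521% of all probes that did so. They were the only probes of the 576 that lay lower in spindle lines in this way. The bordering lines were not above background on either side, so the gaps between them show no size of change. These lines were MSCP1 and D3 for miR-200a, B9 and D3 for miR-200c, and C5N and A5 for miR-141. miR-200a was lower by a log2 difference of -1.86 ± 0.44 (SE; 95% limits -2.80 to -0.92; limma unadjusted p = 0.000779, adjusted p = 0.224) and ranked 2 of 576 by p. The median difference of the members was -1.86, and that of all probes 0.005.

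Against the non-malignant squamous lines the family differed most. miR-141 differed by -2.50 (95% limits -4.08 to -0.91), miR-200c by -2.23 (-3.63 to -0.83), miR-200b by -2.23 (-3.75 to -0.71), miR-200a by -2.17 (-3.19 to -1.14) and miR-429 by -1.11 (-1.93 to -0.29). In limma all 5 had an unadjusted p under 0.05, against 2.95% of all probes lower at that threshold, and 0 of 5 had an adjusted p under 0.05 (0% of all probes), the adjusted p being 0.262 for miR-200a and 0.396 for the other 4. miR-200a had the smallest p of all 576 probes. miR-200a, miR-200c and miR-141 lay lower in spindle lines with no overlap, against 0.868% of all probes that did so. Here too the bordering lines were not above background, MSCP1 and D3 for miR-200a and miR-200c, and C5N and A5 for miR-141.

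Because all spindle lines were at background, these differences are compressed, and only a lower bound of the fold between the observed group means can be given. For the bound, each spindle value was raised to the dimmest above-background probe of its array. The bound allows for background alone and not for the spread between lines. For miR-141 the limma limits, -4.08 to -0.91, include differences smaller than 1 log2 unit. Between the observed means, miR-141 was at least 3.46-fold lower in spindle lines (means 6.92 and 9.42, limma adjusted p = 0.396). The bounds were 2.68-fold for miR-200b (6.83 and 9.05) and 2.35-fold for miR-200a (6.69 and 8.86). They were 2.20-fold for miR-200c (6.54 and 8.77) and 1.16-fold for miR-429 (6.73 and 7.84). miR-200a and miR-141 were above background in 4 of the 5 non-malignant lines and the other members in 3.

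Within malignant lines the spindle minus squamous differences were smaller, and the limits of all members but miR-200a included 0. miR-200a differed by -1.55 (95% limits -2.73 to -0.36), miR-200b by -1.72 (-3.48 to 0.03), miR-141 by -1.80 (-3.63 to 0.03), miR-200c by -1.27 (-2.89 to 0.35) and miR-429 by -0.52 (-1.47 to 0.43). limma gave 0 of 5 called (0% of all probes, adjusted p 0.99 for each member). At a limma unadjusted p under 0.05, 1 member, miR-200a, was lower, against 1.56% of all probes lower at that threshold. All members but miR-429 lay lower in spindle than in malignant squamous lines with no overlap, 4 of 5 against 2.6% of all probes. For miR-200c neither of the bordering lines, B9 and D3, was above background. miR-429 was above background in 0 of the 3 malignant squamous lines, so no fold is given for it. Without PDVC57, the brightest of the 3, the miR-200c difference was -0.48 and the miR-141 difference -0.91.

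Malignant and non-malignant squamous lines were compared at matched morphology. All 5 members had lower means in the malignant lines, by -0.50 (miR-200b) to -0.96 (miR-200c), and the 95% limits of every member included 0, running from -2.58 to 0.66 for miR-200c. Leaving out single lines moved these values. The miR-200b difference was -0.05 without C50 and -1.06 without C5N, that of miR-200c -0.48 without B9 and -1.75 without PDVC57, and that of miR-141 -0.17 without B9 and -1.58 without PDVC57. limma called 0 of 5 (0% of all probes, smallest member adjusted p 0.844), and 0 had an unadjusted p under 0.05 (1.91% of all probes were lower at that threshold). Of the 5 members 0 were free of overlap, while 2.26% of all probes lay lower in malignant lines with no overlap. The limits for miR-141 were -2.53 to 1.14, wider than 1 log2 unit on both sides, so this number of lines does not show that the groups are alike.

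**Figure D2:**
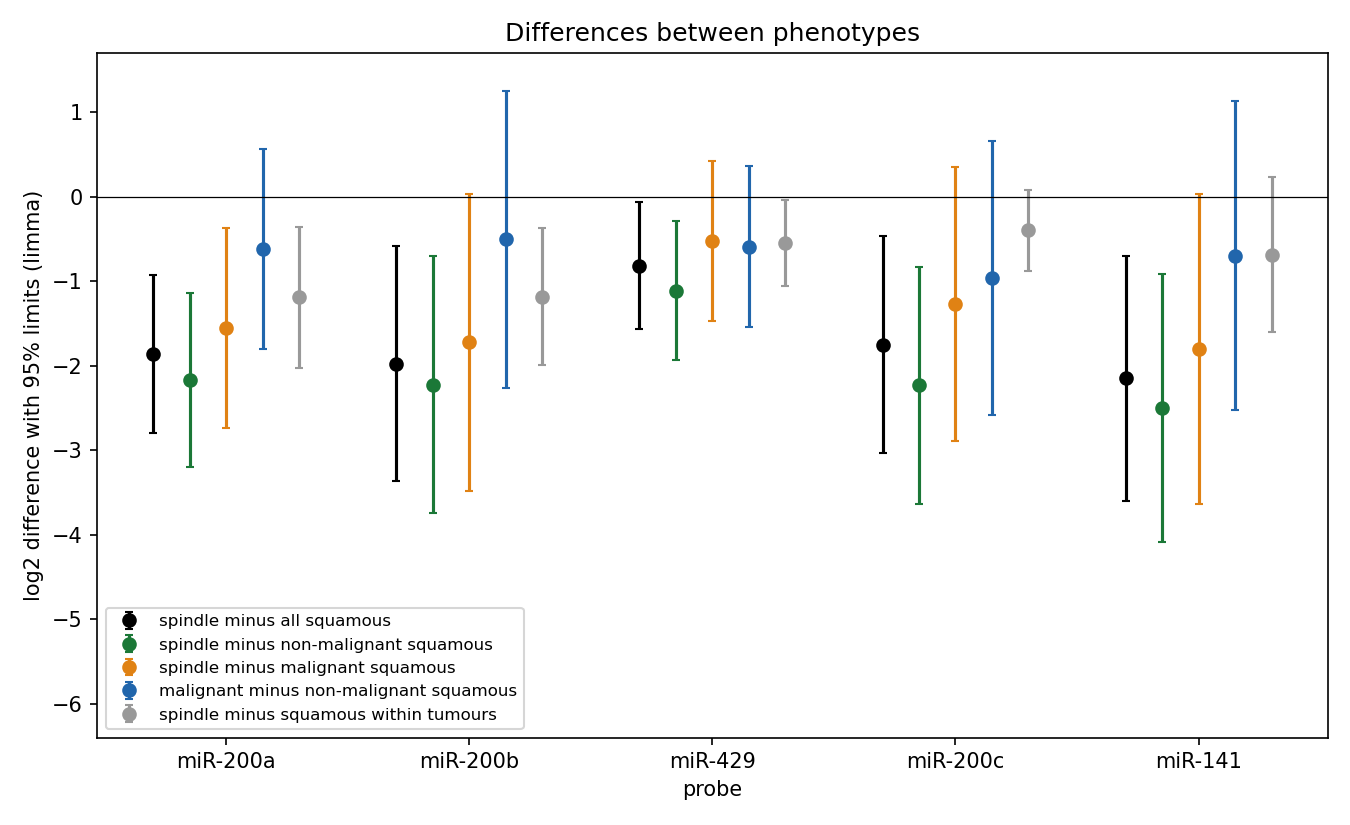
Log2 difference of each probe (horizontal axis) in the 5 comparisons (colours), with 95% limits from limma (vertical axis, log2). Points against squamous lines lie below 0 for all probes. The limits of malignant minus non-malignant squamous lines include 0 for every probe, and those against non-malignant squamous lines for none.

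The calls depended on scaling and on which lines entered. With each array centred on its U6 probes, 0 of 5 members lay lower with no overlap against all squamous lines and 0 against malignant squamous lines (0% of all probes in both), and 5 did against non-malignant lines (1.22%). Without MSCP1 alone, limma called miR-200a against all squamous lines (-2.07, adjusted p = 0.0282) and against non-malignant lines (-2.58, adjusted p = 0.0114). Without C5N, MSCP1 and A5, set aside after the data were seen, limma called 4 of 5 members against all squamous lines (1.39% of all probes) and 5 of 5 against non-malignant lines (1.22% of all probes), with differences of -1.71 (miR-429) to -3.80 (miR-141) in the latter. C5N and MSCP1 have the lowest family means of the non-malignant group, so leaving them out had to enlarge the difference. Among these 10 lines no member was called in spindle against malignant squamous lines or in malignant against non-malignant squamous lines. In the latter the differences were then -1.26 (miR-429) to -2.09 (miR-200c), and 4 of 5 members lay lower with no overlap, against 5.21% of all probes.

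The cluster of miR-200a, miR-200b and miR-429 and that of miR-200c and miR-141 were compared by the mean of their probes in each line. The non-malignant squamous means were 8.59 ± 1.33 (SD, n = 5) for the chromosome 4 cluster and 9.09 ± 1.65 for the chromosome 6 cluster. In malignant squamous lines they were 8.01 ± 0.58 (n = 3) and 8.26 ± 1.46, and in spindle lines 6.75 ± 0.11 (n = 5) and 6.73 ± 0.25. Since probes differ in brightness, the comparison rests on how the gap between the clusters moves from line to line. The gap, chromosome 6 minus chromosome 4, was 0.51 ± 0.53 in non-malignant squamous, 0.25 ± 0.96 in malignant squamous and -0.02 ± 0.29 in spindle lines. No member was above background in spindle lines, so the spindle gap is one of background values, and the spindle minus squamous difference of -0.40 says nothing of the clusters beyond the squamous gap. Among the 8 squamous lines the gap was 0.41 ± 0.67 (SD). It too rests in part on background values, as C5N and MSCP1 had 1 member each above background and miR-429 was above it in 3 lines.

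Line by line the gap was 0.06 in C5N, 1.01 in C50, 0.02 in NK, 0.30 in MSCP1 and 1.15 in P6. It was -0.62 in B9, 0.09 in E4 and 1.28 in PDVC57. In the spindle lines it was 0.23 in A5, 0.17 in D3, -0.51 in CARB, 0.01 in CARC and -0.01 in H11. B9 and PDVC57, both malignant squamous, marked the ends of the range. B9 lay below PDVC57 by -2.54 for miR-200c and -2.83 for miR-141, and by -0.74 for miR-200a and -1.44 for miR-200b. E4 showed a like order, with -2.17 and -2.48 for the chromosome 6 members against -1.33 and -1.47 for miR-200a and miR-200b. miR-429 was not above background in any of the 3 lines, so its differences are not set beside these, and miR-200c was not above background in B9 or E4, so its differences are compressed. Each of these is 1 line and carries no test.

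**Figure D3:**
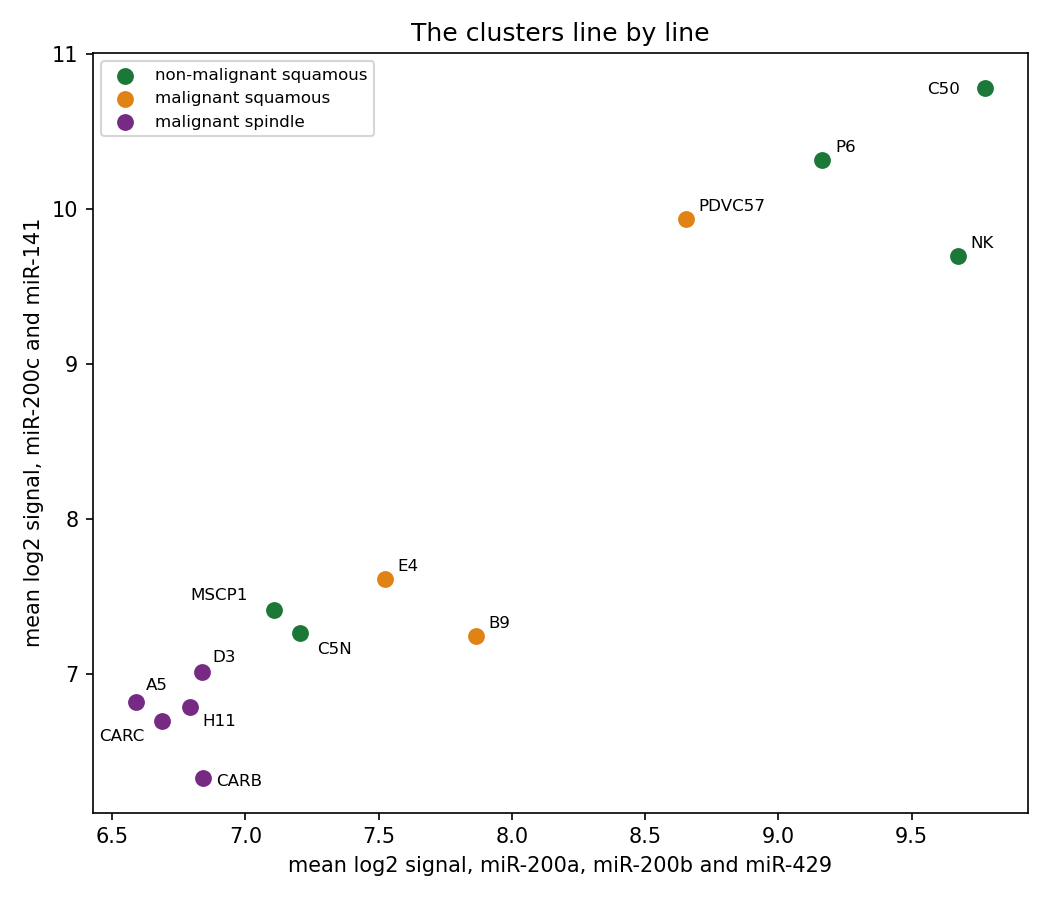
Mean log2 signal of miR-200c and miR-141 (vertical axis) against that of miR-200a, miR-200b and miR-429 (horizontal axis), 1 point per line, coloured by phenotype. C50, P6, NK and PDVC57 form an upper set and the other 9 lines a lower one. B9 lies to the right within the lower set, with cluster means of 7.87 and 7.25.

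Sister lines from 1 tumour allowed the phenotypes to be compared at a shared origin. B9 is the squamous sister of the spindle lines A5 and D3. miR-200a was lower than in B9 by -1.66 in A5 and -1.26 in D3, miR-200b by -1.31 and -1.13, and miR-429 by -0.86 and -0.69. The chromosome 6 members had smaller differences, -0.50 in A5 and -0.08 in D3 for miR-200c, and -0.36 and -0.39 for miR-141. B9 itself was not above background for miR-429 or for miR-200c, the latter at 0.26 above the negative control median. A5 and D3 were above background for no member, so each difference is limited by how far B9 stood above background. B9 had 7.66 for miR-141 over a negative control median of 6.57, and 8.20 for miR-200a and 8.08 for miR-200b. The smaller chromosome 6 differences therefore do not by themselves show that the clusters differ.

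In the other tumour H11 was lower than its squamous sister E4 for every member. The differences were -0.83 for miR-200a, -1.13 for miR-200b, -0.24 for miR-429, -0.55 for miR-200c and -1.11 for miR-141. In 9 of the 15 sister differences the squamous line was above background. The other 6, those of miR-429 and miR-200c in both tumours, compare values that are not above background on either side and show no size of change. With tumour as a block, limma gave -1.19 (95% limits -2.02 to -0.36) for miR-200a, -1.18 (-1.99 to -0.38) for miR-200b, -0.54 (-1.05 to -0.04) for miR-429, -0.40 (-0.88 to 0.08) for miR-200c and -0.69 (-1.61 to 0.23) for miR-141. Of these, 0 of 5 passed after adjustment over all probes (0% of all probes, limma adjusted p 0.981 for each member). miR-200a, miR-200b and miR-429 had an unadjusted p under 0.05, against 0.694% of all probes lower at that threshold, but miR-429 was not above background in any of the 5 sister lines and its difference was -0.24 without B9. Without E4 or H11, the miR-141 difference was -0.37, and without B9 it was -1.11. U6 signals also differed between sisters, U6-snRNA-1 by -1.60 (A5), -0.21 (D3) and -2.12 (H11), and their part in the result was not tested. Centred on the U6 probes, these differences all turned positive, by 0.06 to 0.85, while the median of all probes moved to 1.27.

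**Figure D4:**
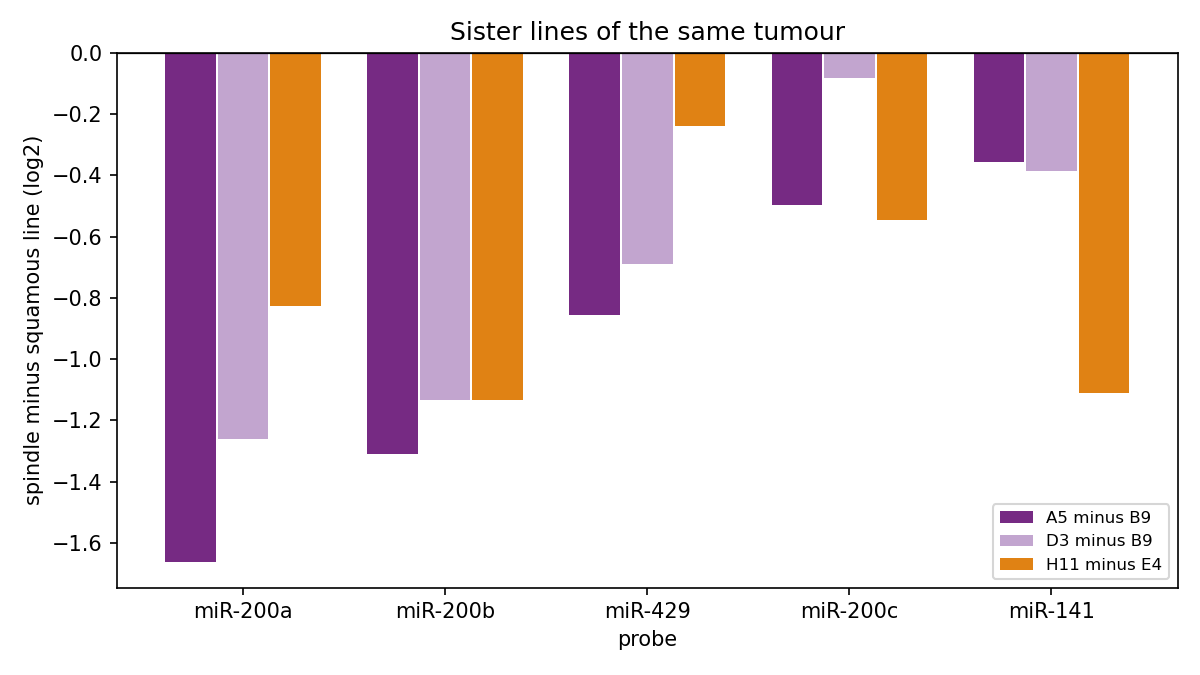
Log2 difference between each spindle line and its squamous sister (vertical axis) for each probe (horizontal axis), 1 bar per sister pair. All 15 bars point down, 6 of them (miR-429 and miR-200c) between values not above background. In the B9 tumour the bars of miR-200c and miR-141 (-0.08 to -0.50) are shorter than those of miR-200a and miR-200b (-1.13 to -1.66). B9 was also dimmer for miR-200c and miR-141 (6.83 and 7.66) than for miR-200a and miR-200b (8.20 and 8.08).

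The members followed each other closely over the lines. Over 13 lines the Pearson correlation between members ran from 0.80 (miR-429 and miR-141) to 0.98 (miR-200c and miR-141), with a median of 0.93 over 10 pairs, and it ran from 0.80 to 0.99 within the 8 squamous lines. Among all 17578 pairs of mouse probes above background in at least 3 lines the median was 0.34 over the 13 lines and 0.52 in the squamous lines. The points share the arrays and fall into a bright and a dim set, so r mostly states which lines were bright. Pairs of the same cluster had a median of 0.92 and pairs of different clusters 0.93, and pairs with the same seed had 0.91 against 0.94 for pairs with different seeds. Within the 8 squamous lines the order by cluster turned, with 0.93 for the same cluster and 0.89 for different clusters, and the medians by seed were 0.89 and 0.93. These medians carry no test.

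Of the 181 other mouse probes above background in at least 3 lines, the skin miRNA miR-205 had the pattern most like the mean of the 5 members over the 13 lines. Its Pearson correlation with that mean was 0.86 and Spearman's rho 0.81 over 13 lines. Within the 8 squamous lines its Pearson correlation was 0.72, below miR-320 (0.80), miR-484 (0.76) and miR-301a (0.75), so it was not the most alike there. Over the 13 lines the next 4 were miR-301a (0.66), miR-484 (0.65), miR-320 (0.64) and miR-24-2* (0.63). The family and miR-205 parted in E4, where miR-205 was 6.69, near background, and 3 miR-200 members were above it, and in B9, where miR-205 was 10.94 with a family mean of 7.62.

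The opposite strand of the same hairpins was measured by separate star-form probes for 4 of the members. These strands are shown because they come from the same precursors and yet read differently (seed in capitals; they correspond to the strand from the 5′ side).
miR-200a-5p: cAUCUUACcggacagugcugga
miR-200b-5p: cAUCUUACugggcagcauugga
miR-200c-5p: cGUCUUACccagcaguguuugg
miR-141-5p: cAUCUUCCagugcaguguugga
miR-200a* was above background in 1 line, E4 (9.02), and lay between 6.34 and 7.05 in the other 12. miR-200c* was above background in no line (6.49 to 7.44). miR-141* was above background in 3 lines, highest in MSCP1 (8.63), followed by E4 (7.85) and C5N (7.72). miR-200b* was above background in 5 lines and highest in the spindle line D3 (9.07), then in its sister lines B9 (8.65) and A5 (8.11), followed by NK (7.98) and PDVC57 (7.91), which are bright for miR-200b too. The correlation with the family member of the same hairpin, over 13 lines that share the arrays, was -0.01 for miR-200a, 0.15 for miR-200b, -0.38 for miR-200c and 0.06 for miR-141. In spindle against all squamous lines limma gave differences of -0.44 for miR-200a*, 0.14 for miR-200b*, 0.19 for miR-200c* and -0.52 for miR-141*, with adjusted p of 0.896 to 0.921.

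**Figure D5:**
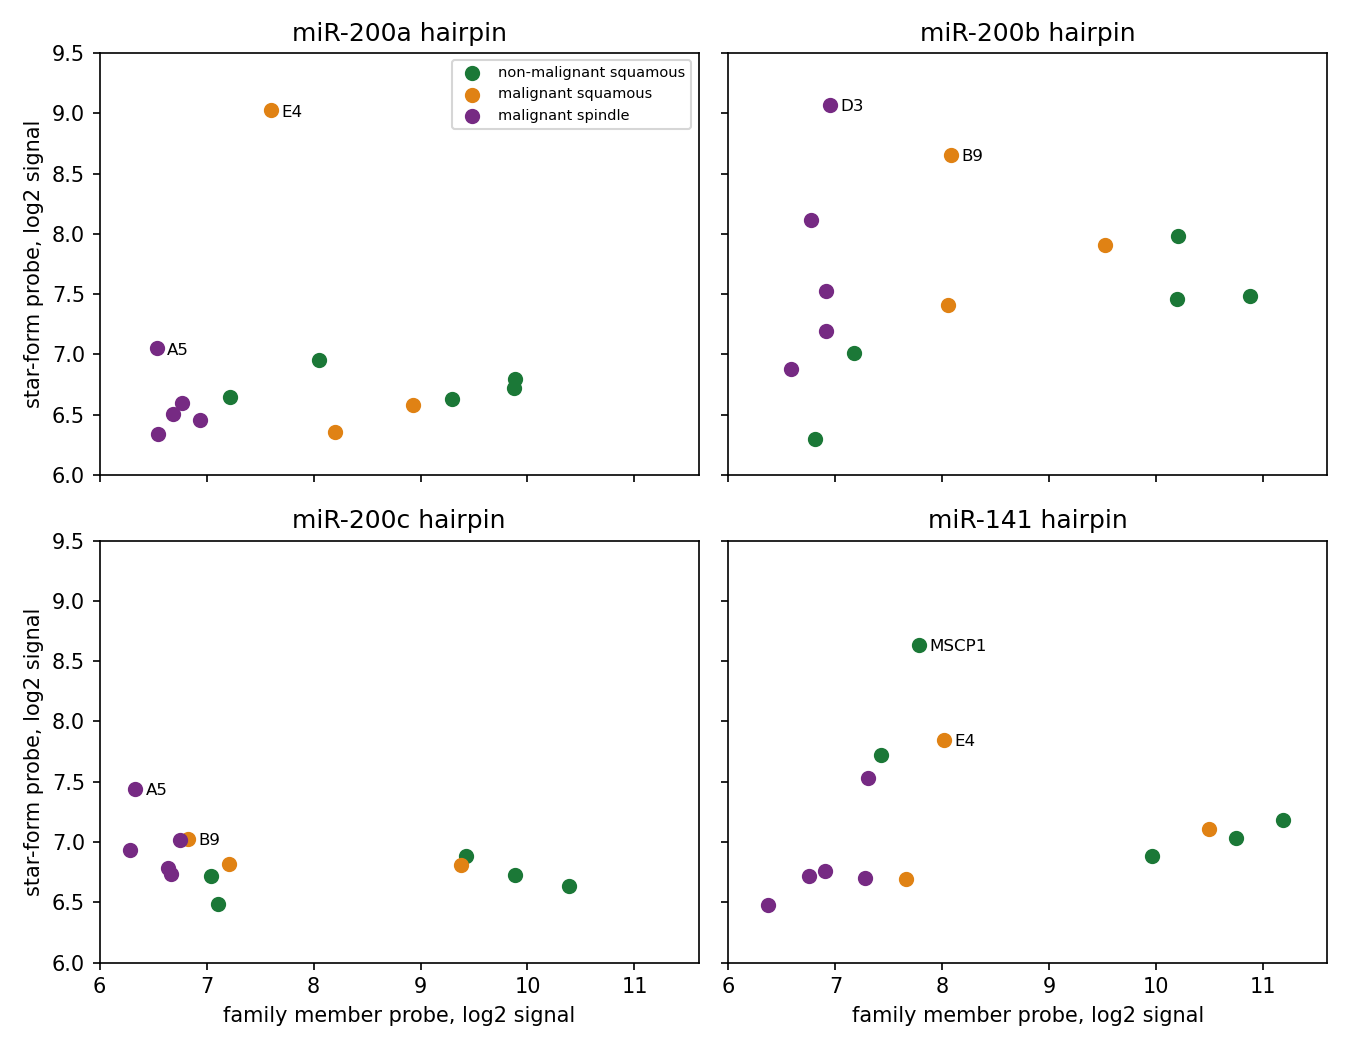
Log2 signal of the star-form probe (vertical axis) against that of the family member from the same hairpin (horizontal axis), 1 panel per hairpin and 1 point per line, coloured by phenotype, with the 2 highest star-form lines named. D3, E4, B9 and MSCP1 hold the highest star signals (9.07, 9.02, 8.65 and 8.63), and none of them is among the 4 lines with the brightest family members.

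A separate probe designed for human miR-429 stayed between 6.53 and 7.04 in all 13 lines and was above background in none. The mouse miR-429 probe reached 8.94 on the same arrays.

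The family was set beside other miRNAs of the epithelial and mesenchymal states, from lists chosen with results of these data known. Of 10 other epithelial miRNAs, 9 had a lower mean in spindle than in all squamous lines, 0 passed the adjusted test and 1 had an unadjusted p under 0.05, with 48.6% of all probes lower and 1.56% lower at that threshold. The list had a median difference of -0.49 against 0.005 for all probes. That 1 was miR-205 (-2.70 ± 0.74, SE; limma adjusted p = 0.378). miR-182 (-0.79) and miR-183 (-0.75), sensory and epithelial miRNAs of 1 cluster, had adjusted p of 0.896 each, as had miR-375 (0.22), which was at background in every line. Of the 11 probes for mesenchymal miRNAs 8 had a higher mean in spindle lines (51.4% of all probes did), 0 passed the adjusted test and 4 were higher at an unadjusted p under 0.05, against 3.30% of all probes. Their median difference was 0.37. Against non-malignant squamous lines alone all 11 were higher (median 0.72, all probes 0.03). Against malignant squamous lines 6 were higher and 5 lower (median 0.02, all probes -0.01).

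The highest mesenchymal probe against all squamous lines was miR-143 (1.68 ± 0.39, SE, limma adjusted p = 0.224), which is abundant in fibroblasts and smooth muscle. It was followed by the shared probe of miR-199a-3p and miR-199b (1.41 ± 0.42, limma adjusted p = 0.447). Next were miR-199a-5p (0.99 ± 0.35, limma adjusted p = 0.594) and miR-145 (0.78 ± 0.24, limma adjusted p = 0.447). None of these passed the adjusted test. Summed over their 5 probes, the fibroblast and smooth muscle markers ran from 34.2 to 35.1 in non-malignant squamous lines. The sums were 34.4 to 35.1 in malignant squamous and 36.1 to 44.2 in spindle lines. miR-143, miR-145 and the shared probe of miR-199a-3p and miR-199b were above background in 3 lines each, and miR-199a-5p in 2. None of these was therefore above background in every spindle line, and their highest levels were in CARC or CARB. miR-214 was above background in 12 lines, with a malignant squamous mean of 8.52 and a spindle mean of 8.55. The part of these markers in the low miR-200 levels was not tested.

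Of the markers of other cell types, some were at background throughout and some were not. Both endothelial probes (miR-126-3p and miR-126-5p) were at background in every line, as were the blood markers miR-451, miR-144 and miR-223, the muscle markers miR-133a and miR-206 and the neural marker miR-124. The muscle marker miR-1 was above background in 8 of 13 lines, up to 8.36 in D3, miR-133b in 1, and the neural marker miR-9 in 3, up to 8.18 in CARB. The 6 blood probes summed to 39.9 to 40.9 in non-malignant squamous, 40.5 to 46.1 in malignant squamous and 40.3 to 48.2 in spindle lines. miR-142-3p, a miRNA of blood cells, stood at 11.08 in H11, 10.01 in E4 and 9.89 in D3, and at most at 7.15 in the other lines. The 4 skeletal muscle probes summed to 26.7 to 28.2, 27.4 to 28.7 and 27.5 to 29.0 in the 3 groups, and the 2 neural probes to 13.4 to 13.8, 13.2 to 14.02 and 13.8 to 15.0.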

How the data were processed

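The files hold 1 complete table of log2 signals for 1271 probes on 14 arrays, made by the authors and deposited. That the scale is log2 was read from the values (5.93 to 15.21). Per the labels' protocols, total RNA was isolated with a Qiagen kit and labelled with Cy3 by the Exiqon kit. How the arrays were scanned, background-corrected, centred and normalized is not given in the sources used here. The deposited columns were used unscaled, and the 2 A5 arrays (r = 0.994, median absolute difference 0.11) were averaged. At most 2 values were identical between any 2 arrays. Nothing says that the lines were sampled more than once, so p-values measure the spread between lines. Sister lines are not independent.

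The package limma (version 3.58.1, R 4.3.3), using lmFit and a trended eBayes, was fitted to the 576 mouse probes with 3 phenotype groups, the all-squamous contrast weighting both squamous groups equally, and to the 5 sister lines with tumour as a block. p-values were adjusted by Benjamini-Hochberg over the 576 probes in each of 5 comparisons. The number of arrays limits the precision. The fit was also run on simulated data, drawn as independent normal values with no background floor, shared tumours or outlying arrays. That run does not speak to these features of the data.

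The members and lists were chosen with earlier results of these data known. Named besides the members were the star forms, the 5 probes most correlated with the family mean and, per list, up to 4 miRNAs with the smallest p. Alternatives covered normalization, scaling, background, probe filters, the variance model, an exact permutation test, the A5 arrays, spretus parentage and each line left out. Spretus parentage was coded from the organism label, which goes against the descriptions for NK and P6. The list of the 3 lines set aside was added after the data were seen.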

Additional observations from a re-analysis of the deposited data

Results flagged for a closer look

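miR-429 in the spindle line CARB stood at 7.402, far from the other 4 spindle lines, the nearest of which (H11) had 6.685. The gap was 0.763 of the range of the group, above Dixon's critical value of 0.71 for 5 samples. Over 12 groups tested 1 was flagged, where chance flags about 1 in 20. The value lies 0.74 above the negative control median of that array and so is not above background, like the other 4 members in CARB (6.29 to 6.58).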

How the results depend on the processing

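No member changed the sign of its difference in spindle against all or against non-malignant squamous lines, nor in malignant against non-malignant lines, under any alternative run. Members called against all squamous lines numbered 0 in the deposited scale (0% of all probes) and 1 with quantile normalization (0.347%). They numbered 4 with dim probes left out (3.72% of the 188 probes tested) and 5 with array weights (1.91%), whose estimate did not converge. Without C5N, MSCP1 and A5 they numbered 4 (1.39%). Against non-malignant lines the same alternatives gave 1 (0.347%), 4 (3.19%), 5 (1.56%) and 5 (1.22%), and centring on U6 gave 4 (1.74%). Against malignant squamous lines array weights gave 1 (0.521%). All members passed the dim filter through squamous lines alone, so its counts support nothing. Leaving out each line gave 0 to 1 called against all squamous and 0 to 1 against non-malignant lines, the 1 being without MSCP1. When centred on U6, members lower without overlap numbered 0 against all squamous (0% of all probes), 5 against non-malignant (1.22%) and 0 against malignant squamous lines (0%). These moved from 3 (0.521%), 3 (0.868%) and 4 (2.6%). Without C5N, MSCP1 and A5 they numbered 4 against all squamous (0.868%) and 5 against non-malignant lines (4.34%). For malignant against non-malignant lines 5 were called and 5 free of overlap on U6 centring, where 90.1% of all probes were called and 78.3% lay lower without overlap. In that comparison, when C5N, MSCP1 and A5 were left out, 4 lay lower with no overlap (5.21%), from 0. Centring on U6 brought the median of all probes to -0.18, -1.33, 0.99, -2.33 and, within tumours, 1.27. It turned miR-429 against malignant squamous lines to 0.48 and the sister-line differences to 0.0557 (miR-200a), 0.0616 (miR-200b), 0.70 (miR-429), 0.85 (miR-200c) and 0.56 (miR-141). Relative to that median all 5 members were lower in every comparison. Centring moves all probes of an array alike, so this had to repeat the deposited scale and adds no support. The cause of the changes under these alternatives was not tested. The spindle minus squamous difference of the cluster gap (-0.40) ran from -0.62 to -0.14 with each line left out. By replicate number, no paired analysis was possible because the lines carry no replicate numbers shared between groups. Pairing by tumour was possible and is the sister-line comparison. The spretus covariate and the permutation test were not run within tumours.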
